A study of Homo sapiens with 24 samples.

Results

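The introns described here kept far more unspliced reads at one of their ends than at the other when HCT116 cells were treated with the splicing modulator E7107. They were selected on measured values. An intron was eligible when its spliced junction was the most used one at both of its splice sites in the WT DMSO samples, spanned at least 500 bases, had reads at both sites in all 24 samples, and had a mean boundary usage of 10% or less at both ends in WT DMSO. Of the 60967 eligible introns, 1251 had boundary values that differed by 30 percentage points or more between the ends in the mean of the 6 WT E7107 samples. The donor (5′) boundary was the higher one at 883 introns in 813 genes (5′ excess) and the acceptor (3′) boundary at 368 introns in 346 genes (3′ excess). A gene could not be assigned to 2 of the former.

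HCT116 is a human colorectal carcinoma cell line. Its parental cells carried a lentiviral cDNA for either WT PHF5A or the Y36C mutant and were treated with DMSO, the vehicle, or with E7107, so that each genotype was measured with and without drug, in 6 samples for each of the 4 combinations. The cells were selected with blasticidin, they still held their endogenous PHF5A gene, and the labels give neither dose nor time, while the methods name more than 1 dose. Polyadenylated RNA was sequenced, and the methods describe the 6 samples of a group as replicate treatments of the same selected cells, so the p-values below measure the spread between such replicates only. The values are percent spliced in (PSI), the share of the reads at a splice site that belongs to one junction. A boundary row holds the reads that run from the exon into the intron unspliced, so its PSI measures intron retention (IR) at that end alone. The values are percentages only, so the depth behind a PSI is unknown. The number of splice sites with reads ranged from 336361 to 340236 in the DMSO samples of both genotypes, from 281367 to 283782 in WT E7107 and from 328615 to 331775 in Y36C E7107. All splice sites of the epithelial genes EPCAM, CDH1, KRT8, KRT18 and KRT19 had reads in all 24 samples, whereas no site of PTPRC, CD3E, COL1A2 or GFAP was listed. The intestinal genes CDX1 and CEACAM5 had no listed site and VIL1 had 1 listed site of 38, which lacked reads in part of the samples, and CDX2 had 2 of 4 sites with reads in all samples. COL1A1, a collagen gene best known from fibroblasts, had 85 of 100.

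Splicing begins when the U1 snRNP pairs with the donor site and the U2 snRNP, which contains SF3B1 and PHF5A in its SF3b part, is placed on the branch point upstream of the acceptor site. E7107 binds SF3b at the branch point pocket. An intron that stays whole in a polyadenylated RNA carries unspliced reads at both ends. Unspliced reads at the donor alone are known from RNAs that end within the intron, for instance at an intronic polyadenylation site, and unspliced reads at the acceptor alone from RNAs that start within it or whose donor is joined to another exon. PSI cannot tell these RNA forms apart.

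The sequences at both ends are shown for 3 of the largest 5′ excess introns and 4 of the largest 3′ excess introns, since the ends of the same intron are what the comparison is about. They were read from GRCh37, the genome of the hg19 build used in the files. Each donor line gives 10 exon bases followed by 20 intron bases with the first 6 intron bases in capitals, and each acceptor line gives 27 intron bases and 3 exon bases with the final AG of the intron in capitals.
AFF4 donor: accactggatGTAAGTcacacatttagagc
AFF4 acceptor: ctaatgtgtgctgctttttctttcaAGgca
EGFR donor: gaaaagaaagGTAAGGgcgtgtctcgccgg
EGFR acceptor: catgtgatatctgtctttttcttccAGttt
TRIM4 donor: gagctaccggGTGAGCtggccgtcgcggtg
TRIM4 acceptor: cttacctgtgtgtgtttctgctggcAGgag
FIGNL1 donor: ccagccgcagGTAGGAtgcggtgacgggag
FIGNL1 acceptor: agtgatgttgctgcgcttcttttatAGgtg
GJC1 donor: ccgccgccggGTGAGGggcggccgcagggc
GJC1 acceptor: acctgctcttttctttttcccttccAGagg
ADRM1 donor: cgcgaggcagGTGCGGgagtcgccgggcct
ADRM1 acceptor: gtctcagcgtcctctccgcgctttcAGgat
ADNP donor: ccgagtcaagGTAAGCccggcgccgccgcg
ADNP acceptor: attttactcctcttgttatttccatAGgtg
All 14 windows hold the GT and AG of a standard intron, as did 99.3% of the 5′ excess introns, 100% of the 3′ excess introns and 99.2% of the other eligible introns.

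In WT cells treated with E7107, the donor boundary of the 5′ excess introns had a mean PSI of 57.7% ± 0.54 (SD of the 6 sample means, n = 6) and the acceptor boundary one of 12.5% ± 1.23 (SD, n = 6). The 3′ excess introns showed the opposite order, with 19.5% ± 2.49 (SD, n = 6) at the donor and 58.2% ± 2.64 (SD, n = 6) at the acceptor. The other 59716 eligible introns had 12.2% ± 1.04 (SD, n = 6) and 12.4% ± 0.883 (SD, n = 6). The lower end of a 5′ excess intron was thus close in mean to the ends of the other introns, and its other end stood far above. These WT values chose the introns and are given as a description, without a test. The median difference between the ends was 41.5 percentage points for 5′ excess and 36.1 points for 3′ excess, and a difference of 50 points or more was reached by 257 and by 36 introns. The lower end had a mean PSI of 10% or less at 481 of the 883 and 115 of the 368 introns, and was 0 in all 6 WT E7107 samples at 124 and 19.

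**Figure D1:**
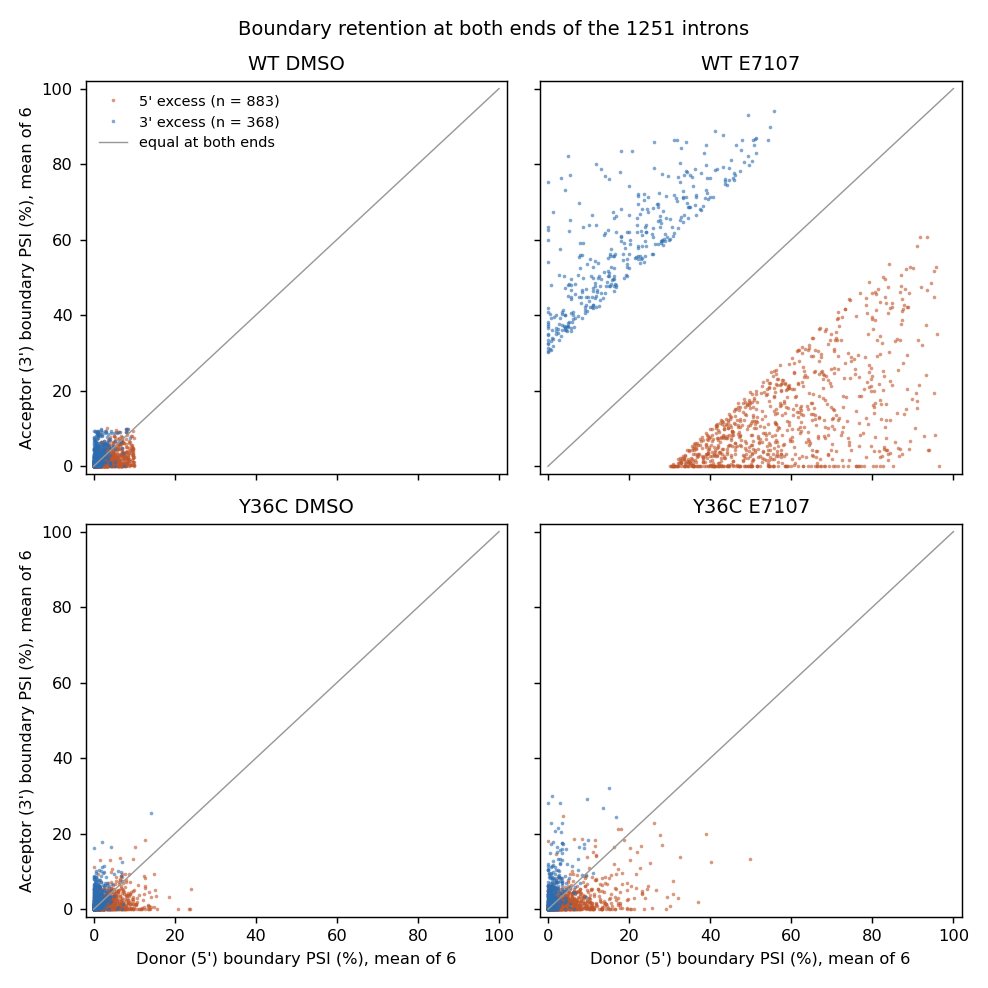
Mean PSI of the donor boundary (x axis, %) against that of the acceptor boundary (y axis, %) for each of the 1251 introns in the 4 groups, with each point an intron and its mean of 6 samples; the line marks equal values. In WT E7107 both sets lie at least 30 points from the line because they were selected so, and in Y36C E7107 most points lie near the origin.

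The same 6 WT E7107 samples that chose the introns were read singly, and the difference held to a different degree in the 2 directions. The selected differences were also larger for 5′ excess. At 749 of the 883 5′ excess introns the donor boundary was the higher one in each of the 6 WT E7107 samples, and at 281 of the 368 3′ excess introns the acceptor boundary was. Over all 60967 eligible introns, the donor was higher in all 6 at 3449 and the acceptor at 3875. The highest value of the lower end stayed below the lowest value of the higher end at 625 of the 5′ excess introns (70.8%) and 196 of the 3′ excess introns (53.3%). The introns were also selected anew on 5 of the 6 WT E7107 samples and read in the sample left out. The median difference in the left-out sample was 38.5 to 41.5 points for 5′ excess and 30.4 to 33.3 points for 3′ excess, over the 6 samples in turn. The left-out sample had the direction of the other 5 at 89.9 to 93.2% of the 5′ excess introns and at 83.3 to 84.3% of the 3′ excess introns.

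**Figure D2:**
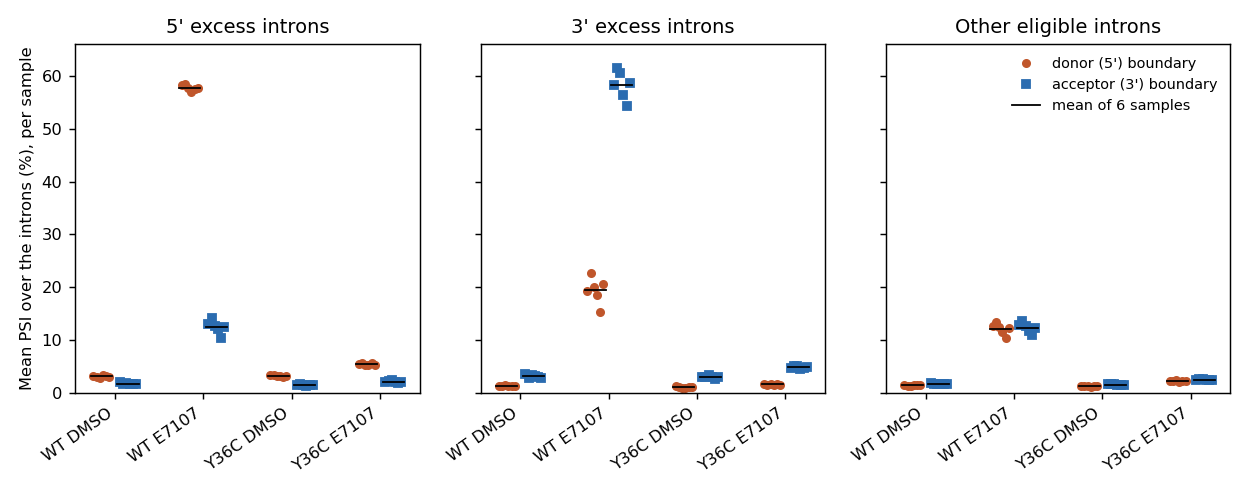
Mean PSI (%) over the introns of a set at the donor boundary (circles) and the acceptor boundary (squares) in each of the 24 samples, by group, with a bar at the mean of 6 samples. The 6 WT E7107 samples lie together at each end, from 57.0 to 58.4% at the donor and from 10.5 to 14.2% at the acceptor of the 5′ excess introns.

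Introns are named here when both ends were annotated exon ends of their gene and no exon of another gene lay over a boundary. The largest 5′ excess was at intron 3 of 20 of AFF4 (chr5:132267915-132269838, minus strand, 1924 bases), which encodes a scaffold of the super elongation complex of RNA polymerase II. Its donor boundary had a PSI of 90.8% in the lowest, 98.0% in the median and 98.4% in the highest WT E7107 sample, whereas its acceptor boundary was at 0 in all 6. In WT DMSO the donor boundary averaged 0.49% ± 1.2 (SD, n = 6). No other junction held reads at this donor, so nearly all reads crossing it in WT E7107 ran into the intron, while all reads at the acceptor were spliced.

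Intron 1 of EGFR, the gene of the epidermal growth factor receptor, is 122920 bases long (chr7:55087059-55209978, plus strand). Its donor boundary ranged from 91.1% through a median of 94.1% to 97.9% in WT E7107, and its acceptor boundary was at 0 in the lowest and the median sample and 25% in the highest. Annotated EGFR transcripts both start and end inside this intron. The donor boundary was 7.01% ± 3.88 (SD, n = 6) in WT DMSO. In Y36C cells it was 13.4% ± 4.96 in DMSO and 12.8% ± 7.15 in E7107 (SD, n = 6), and did not pass the test (limma, adjusted p = 0.899). Intron 1 of TRIM4 (chr7:99507284-99516631, minus strand), which encodes a RING-type ubiquitin ligase, had 93.1%, 96.0% and 96.7% at the donor as lowest, median and highest value, and 0, 5% and 20% at the acceptor. In AFF4, EGFR and TRIM4 alike the lowest donor value lay above the highest acceptor value.

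Introns 1 of LINC03057, a long non-coding RNA gene, C9orf85, MAPK8IP3, which encodes a scaffold of the JNK kinase pathway, APBB2, an adaptor that binds the amyloid precursor protein, and AGPAT5, an acyltransferase of phospholipid synthesis, completed the 8 largest. Their mean donor boundary in WT E7107 lay between 85.2% ± 6.57 in C9orf85 and 93.7% ± 2.47 in LINC03057 (SD, n = 6), and their mean acceptor boundary between 0 in C9orf85 and 8.12% ± 9.57 (SD, n = 6) in MAPK8IP3. In AGPAT5 the spread was small at both ends, with 87.4% ± 1.08 at the donor and 3.18% ± 1.83 at the acceptor (SD, n = 6). An annotated exon of another AGPAT5 transcript lay over this donor boundary. All of these 8 introns but that of AFF4 were the first of their transcript and more than 2000 bases long. An antisense gene overlapped the intron of MAPK8IP3.

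The 8 largest 3′ excess introns were all first introns. In FIGNL1, which encodes an ATPase of homologous recombination, intron 1 (chr7:50517422-50517998, minus strand) had 76.2%, 82.1% and 88.2% at the acceptor boundary in the lowest, median and highest WT E7107 sample and 0, 3.02% and 10.5% at the donor. The donor was not left unspliced in these cells. Of its reads 82.1% went to junctions that reached past the acceptor of intron 1, against 26.7% in WT DMSO, and 13.1% to the junction of the intron itself, against 72.8%. One of the longer junctions, which passes over 2 exons, had a mean of 1.69% in WT DMSO and of 56.2% in WT E7107.

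GJC1, the gene of a connexin of gap junctions, and ADNP, a homeobox protein of chromatin complexes, showed the same pair of changes. At intron 1 of GJC1 (chr17:42884838-42907429, minus strand) the acceptor boundary was 62.5%, 75.3% and 90.5% in WT E7107 as lowest, median and highest value and the donor boundary 0, 2.80% and 6.12%. One junction from this donor, which passes over 1 exon, took 82.5% of the reads in WT E7107 and 0.347% in WT DMSO. At intron 1 of ADNP (chr20:49545363-49547362, minus strand) the acceptor boundary was 61.9%, 77.7% and 95.5% and the donor boundary 7.41%, 11.7% and 24.4%. Junctions past the acceptor took 72.7% of the donor reads in WT E7107 and 41.3% in WT DMSO.

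ADRM1 encodes a ubiquitin receptor of the proteasome. Its intron 1 (chr20:60878106-60878623, plus strand), 518 bases long with 77.4% GC, had 74.2%, 77.0% and 82.3% at the acceptor and 2.29%, 5.60% and 8.33% at the donor in the lowest, median and highest WT E7107 sample. Here the intron's own junction still held 81.0% of the donor reads, and 13.5% went past the acceptor. An annotated ADRM1 transcript starts inside the intron and its first exon runs over the acceptor boundary, as also annotated for GJC1, BRD1 and DUSP14. A FIGNL1 transcript start is annotated inside its intron too, but no annotated FIGNL1 exon reached past the last intron base at the acceptor. BRD1, which encodes a bromodomain protein, and DUSP14, a protein phosphatase, had acceptor boundaries of 73.2% ± 7.27 and 67.4% ± 7.75 (SD, n = 6). TNK1, a non-receptor tyrosine kinase, had 75.2% ± 15.6 (SD, n = 6) with 0 at the donor in all 6 samples, and BAHD1, a heterochromatin protein, had 80.0% ± 13.5 (SD, n = 6). No annotated transcript start lay inside the introns of TNK1, BAHD1 and ADNP. In BAHD1 the donor boundary varied from 0 to 33.3%, and an antisense gene overlapped the intron.

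**Figure D3:**
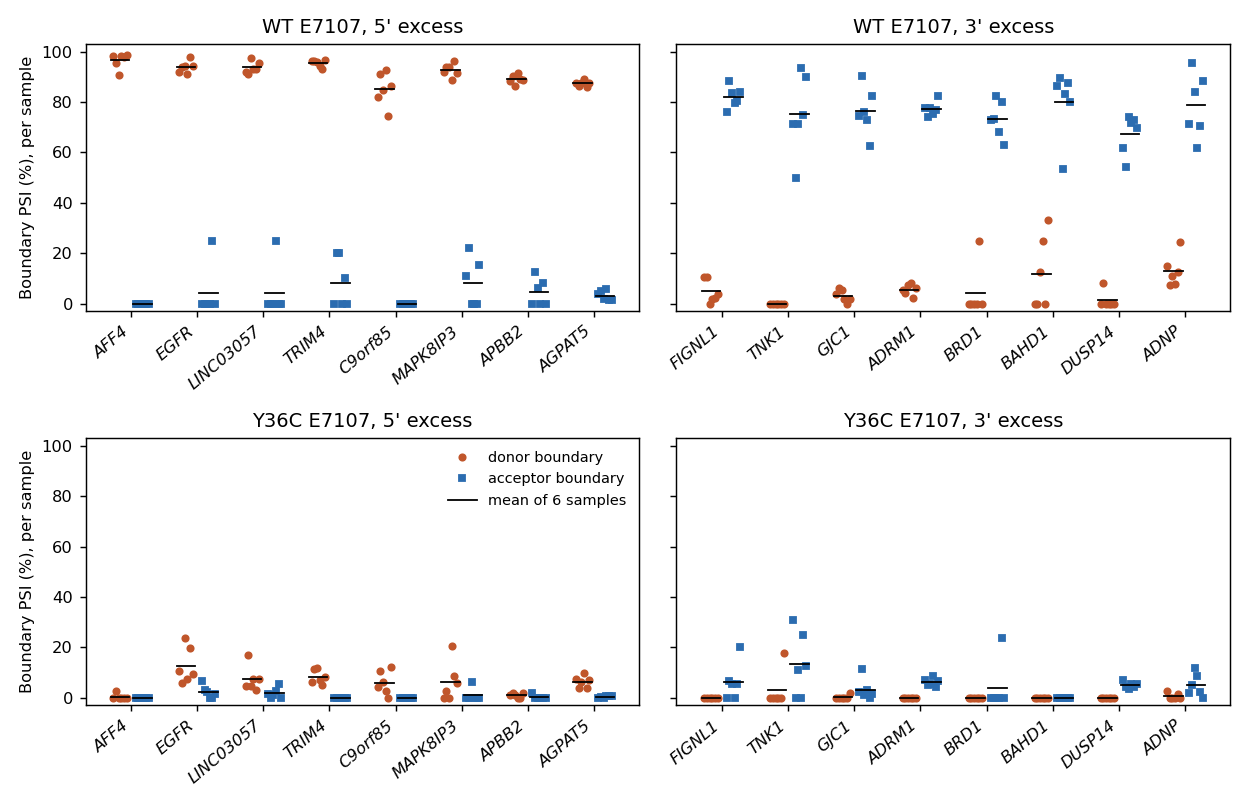
Boundary PSI (%) in each sample for the 8 introns with the largest difference in each direction, at the donor (circles) and the acceptor (squares), in WT E7107 (top) and Y36C E7107 (bottom), with a bar at the mean of 6. In WT E7107 no circle of a 5′ excess intron falls to the level of its squares, and in Y36C E7107 no value exceeds 30.8%.

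Near the limit of 30 points the choice of introns was a matter of small differences. Just inside it were FBXL5 and URB1 for 5′ excess and ZMYM2 and UPF1 for 3′ excess, and just outside it were TMED5 and BRF2, and PPFIA1 and EREG. The mean difference of each of these 8 lay within 0.1 point of the limit. The spread between samples was wide in some of them. In FBXL5, 1 of the introns inside, the acceptor boundary was 0 in the median sample and 100% in the highest one, and the SD of the difference was 28.8 points. In TMED5, outside, the donor boundary ranged from 25% to 48.4% and the acceptor boundary from 2.08% to 8.62%.

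The reads at the splice sites were then divided by where they went. At the donor of the 5′ excess introns, the mean PSI of the intron's own junction was 93.1% in WT DMSO and 39.7% in WT E7107, and the boundary made up nearly all of the difference. At the acceptor of these introns the own junction kept 79.7%, the boundary had 12.5%, and junctions that entered the acceptor from upstream of the donor had 4.89%, against 2.12% in WT DMSO. At the donor of the 3′ excess introns, the own junction had 60.5%, the boundary 19.5%, and junctions past the acceptor 18.3%, against 4.78% in WT DMSO. Such longer junctions held 10% or more of the donor reads at 168 of the 368 introns (45.7%) in WT E7107 and at 63 (17.1%) in WT DMSO. For the other eligible introns the shares were 5.67% and 3.15%.

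Longer junctions enter the denominator of PSI and lower the boundary value at that end. When the boundary was instead set against the intron's own junction alone, 800 of the 883 5′ excess introns (90.6%) still differed by 30 points or more, and 246 of the 368 3′ excess introns (66.8%). The direction turned at 12 and at 10 of them.

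**Figure D4:**
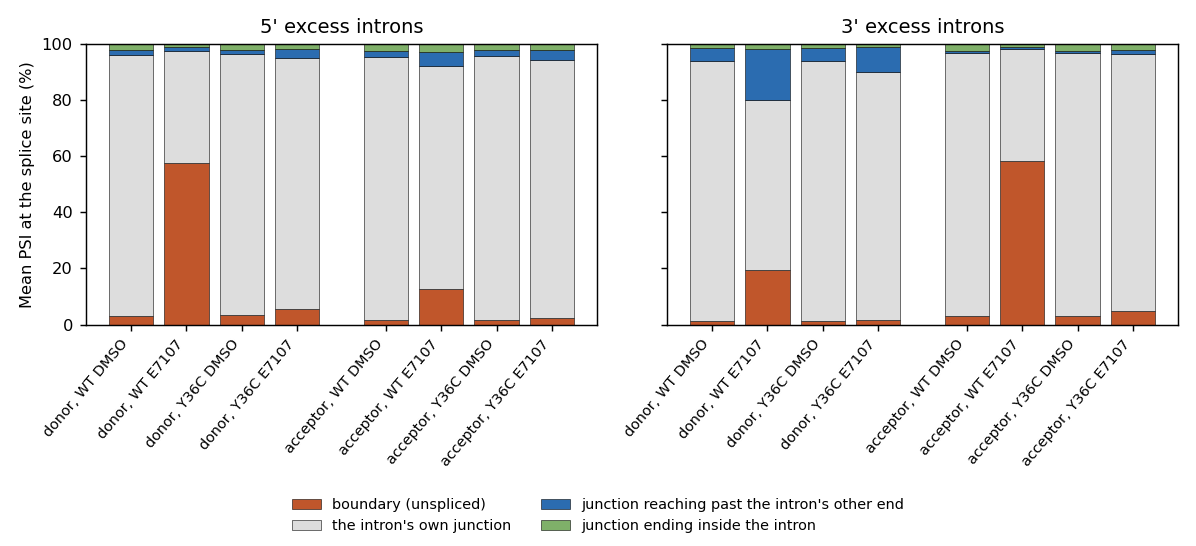
Mean PSI (%) at the donor and acceptor sites of the 5′ excess and 3′ excess introns in the 4 groups, divided into the unspliced boundary, the intron's own junction, junctions that reach past the intron's other end and junctions that end inside the intron. At the donor of the 3′ excess introns, junctions past the acceptor had 18.3% in WT E7107 and 8.83% in Y36C E7107, against 4.78% and 4.95% in DMSO.

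The Y36C samples took no part in the selection beyond having reads. In Y36C DMSO the donor boundary of the 5′ excess introns had a mean PSI of 3.27% ± 0.153, against 5.45% ± 0.16 with E7107, and the acceptor boundary had 1.56% ± 0.0807 and 2.18% ± 0.155 (SD of sample means, n = 6). The 3′ excess introns had 1.13% ± 0.0844 and 1.63% ± 0.127 at the donor and 3.05% ± 0.208 and 4.90% ± 0.245 at the acceptor (SD, n = 6). At both ends of both sets the means of the 6 E7107 samples lay above those of the 6 DMSO samples, and all were far below those of WT E7107. The other eligible introns had 1.33% and 2.29% at the donor, and 1.59% and 2.57% at the acceptor. Only 2 of the 1251 introns reached a difference of 30 points in Y36C E7107.

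The direction of the difference was already present without drug in the group means of most introns. In Y36C DMSO the donor boundary was the higher one in mean at 609 and the lower one at 231 of the 883 5′ excess introns, and the acceptor boundary was the higher one at 278 and the lower one at 62 of the 368 3′ excess introns. In Y36C E7107 the same counts were 658 and 187, and 275 and 73. Over the other eligible introns the donor boundary was the higher one at 37.4% and the acceptor boundary at 51.9% in Y36C DMSO. WT DMSO, which was used in the selection for the limit of 10% and for the most used junction, gave 599 against 245 and 297 against 60. These differences without drug were small, with medians of 0.81 points for 5′ excess and -1.12 points for 3′ excess in Y36C DMSO. Few single introns kept the direction in all 6 Y36C DMSO samples, namely 96 of the 883 and 63 of the 368. Over all 60967 eligible introns the donor was higher in all 6 at 1236 and the acceptor at 2700.

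Whether E7107 shifted the balance between the ends in Y36C cells was tested with limma, taking for each sample the log odds at the donor boundary minus those at the acceptor boundary, over all 58954 eligible introns with enough variation to fit, with Benjamini-Hochberg adjustment. None of the 876 5′ excess introns tested shifted to the donor at an adjusted p of 0.05 or less, and none of the 360 3′ excess introns to the acceptor. Over all introns tested 0.00339% were called with a shift to the donor and 0% with one to the acceptor. The 2 introns called, in the antisense RNA gene PRKG1-AS1 and in ATP2A3, a calcium pump gene, were not among the 1251. At an unadjusted p under 0.05, 74 of the 5′ excess introns (8.45%) shifted to the donor and 20 (2.28%) to the acceptor, where the shares over all introns were 3.37% and 2.9%. Of the 3′ excess introns, 25 (6.94%) shifted to the acceptor and 13 (3.61%) to the donor. On the natural-log scale, the median shift was 0.19 for 5′ excess and -0.10 for 3′ excess, beside 0.01 over all introns.

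The introns nearest to a call were named after their values were seen. Intron 4 of GOSR2, a SNARE of the Golgi, had 2.89%, 4.97% and 8.28% at the donor boundary as lowest, median and highest value in Y36C DMSO and 18.6%, 19.2% and 21.0% in Y36C E7107, without overlap. Its acceptor boundary stayed at 1.27% or less in all 12 samples. The shift was 1.56 ± 0.23 (SE) in log odds with an adjusted p of 0.0531 from limma. Intron 1 of LIN7C, which encodes a scaffold of cell junctions, had the lowest adjusted p of the 3′ excess introns, 0.0667, with a shift of -2.30 ± 0.37 (SE) and a mean acceptor boundary of 0.89% in Y36C DMSO and 11.9% in Y36C E7107. The 2 introns with 30 points or more in Y36C E7107 were intron 14 of NF1, which encodes a Ras GTPase-activating protein, and intron 5 of OSGIN2. In OSGIN2 the donor boundary was 7.08% ± 3.03 in Y36C DMSO and 37.03% ± 6.25 in Y36C E7107 (SD, n = 6). Its acceptor boundary was at 0.839% ± 0.744 and 1.96% ± 1.25 (SD, n = 6). The shift between the ends of OSGIN2 was 1.52 ± 0.39 (SE), which did not pass (limma, adjusted p = 0.432). Tested on its own, its donor boundary rose by 1.98 in log odds (limma, adjusted p = 3.6e-05). In the same limma fit of single boundaries, the GOSR2 donor rose by 1.39 (adjusted p = 9.7e-05) and the LIN7C acceptor by 2.09 (adjusted p = 0.00225). In NF1 the donor boundary already stood at 23.6% ± 17.8 (SD, n = 6) in Y36C DMSO, and the 49.8% ± 20.8 (SD, n = 6) in Y36C E7107 overlapped with it. The NF1 acceptor boundary was at 0 in all 6 Y36C DMSO samples and at 13.2% ± 15.5 (SD, n = 6) in Y36C E7107. The shift between the ends of NF1 was -0.55 ± 0.65 (SE), and thus not to the donor (limma, adjusted p = 0.894).

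Each boundary was also tested on its own in the Y36C samples, within a limma fit over 372796 rows of the whole table in which 43585 rows were higher and 43694 lower under E7107. Most boundaries of the selected introns did not enter it, because a row had to be above 0 in all 6 samples of a group. Of the 310 donor boundaries of 5′ excess introns tested, 85 rose (27.4%), beside 25.7% of the donor boundaries of all eligible introns, and 4 fell. Of their 134 acceptor boundaries 26 rose (19.4%), beside 21.7% of all acceptor boundaries. Of the 149 acceptor boundaries of 3′ excess introns 32 rose (21.5%), and of their 50 donor boundaries 8 did (16%). None of the 4 shares exceeded that of all eligible introns by more than 2 percentage points. With the boundaries that could not be tested counted in, 9.63% of the 883 donor boundaries and 8.70% of the 368 acceptor boundaries at the higher ends rose, beside 5.90% and 5.75% of all eligible introns. These ends also had the higher PSI without drug, which the need for values above 0 favours.

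Junctions that reach past the introns' ends were read from the same fit. A junction at 0 without drug could enter it only through the E7107 samples. An intron with more such junctions also had more chances that 1 of them rose. From the donor past the acceptor, at least 1 such junction rose under E7107 in Y36C cells at 82 of 131 3′ excess introns tested (62.6%) and at 68 of 130 5′ excess introns (52.3%), beside 49.2% of all eligible introns tested. Into the acceptor from before the donor, at least 1 rose at 8 of 23 3′ excess introns (34.8%) and 50 of 112 5′ excess introns (44.6%), beside 51.3%. In mean PSI the junctions past the acceptor of the 3′ excess introns went from 4.95% to 8.83% in Y36C cells, and held 10% or more at 99 of the 368 introns (26.9%) under E7107 and at 57 (15.5%) without it. In ADRM1 a junction past the acceptor, over 2 exons, had 1.06% in Y36C DMSO and 5.43% in Y36C E7107, a rise of 1.18 in log odds (limma, adjusted p = 0.000258). In APBB2 a junction over 4 exons that was at 0 in Y36C DMSO had 13.0% in Y36C E7107 (log-odds change 2.76, limma, adjusted p = 6.03e-07) and 3.86% in WT E7107, where 89.0% of the donor reads were unspliced. This APBB2 junction entered the fit only through the E7107 samples, so the filter itself favoured a rise. In FIGNL1 the junction over 2 exons named above had 3.85% and 9.54%, which did not pass (limma, adjusted p = 0.0709).

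The position in the gene set both kinds of intron apart from the rest. First introns made up 41.0% of the 5′ excess and 38.0% of the 3′ excess introns, and 9.51% of the other eligible introns. Put the other way, 5.86% of the 6182 eligible first introns had 5′ excess and 2.26% had 3′ excess, against 0.762% and 0.400% of the 48707 eligible introns from the third on. Long introns were common among the 5′ excess introns, with a median of 6468 bases, beside 3141.5 bases for 3′ excess and 2331 bases for the others. Up to 2000 bases 0.590% of eligible introns had 5′ excess, between 2000 and 10000 bases 1.49%, and above 10000 bases 4.23%. The share with 3′ excess moved less, from 0.497% through 0.637% to 0.856%, so that 5′ excess introns were 1.19 times as many as 3′ excess introns in the shortest class and 4.94 times as many in the longest. Introns are not replicates of a condition, so these shares carry no test.

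**Figure D5:**
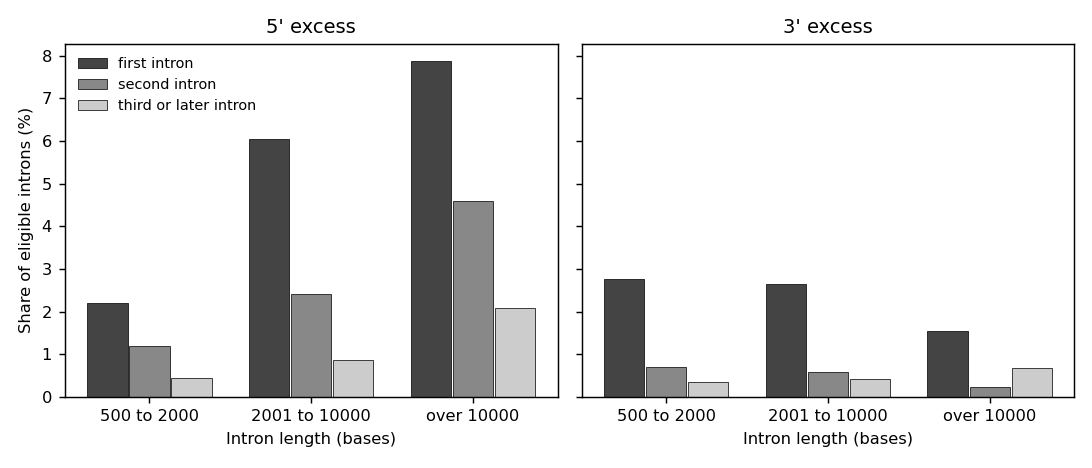
Share (%) of eligible introns with 5′ excess (left) and 3′ excess (right) by intron length in bases and by whether the intron was the first, the second or a later one of its transcript. Among first introns above 10000 bases 7.88% had 5′ excess and 1.55% had 3′ excess, and among first introns of 500 to 2000 bases 2.20% and 2.77%.

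Annotated transcript ends lay inside 164 of the 883 5′ excess introns (18.6%), beside 4.62% of the 3′ excess introns and 7.76% of the others. For 9.29%, 2.17% and 3.75% in the same order, the last exon of such a transcript ran over the donor boundary as a composite terminal exon. Above 10000 bases, where such ends are more common in general, the shares with an end inside were 25.1%, 11.9% and 17.9%, and up to 2000 bases 13.3%, 3.01% and 4.44%. Transcript starts lay inside 21.4% of the 5′ excess introns, 26.4% of the 3′ excess introns and 9.98% of the others, and among first introns inside 36.2%, 49.3% and 43.7%. A start with a first exon over the acceptor boundary was annotated for 10.1% of the 3′ excess introns, 3.40% of the 5′ excess introns and 2.62% of the others, and among first introns for 22.9%, 5.52% and 9.77%. At such boundaries exonic reads of another isoform and unspliced reads cannot be told apart. Most introns of either kind had no such transcript. An exon of another annotated transcript lay wholly inside 34.1% of the 5′ excess introns, 31.5% of the 3′ excess introns and 18.3% of the others, and among first introns inside 50%, 51.4% and 52.8%, so that the gap was not seen there. A small RNA gene lay inside 5.10%, 1.36% and 1.82%. An antisense gene overlapped 21.1% of the 5′ excess introns, 19.0% of the 3′ excess introns and 13.6% of the others, and since the sources used here do not say whether the libraries kept strand, its reads may enter boundary rows.

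Base composition differed along the introns. The median GC content of the first 500 bases was 46.0% in 5′ excess, 49.4% in 3′ excess and 42.6% in other introns, and that of the last 500 bases 37.8%, 42.4% and 40.8%. Within first introns, the first 500 bases had 58.7%, 66.3% and 61.0%, and the last 500 bases 38.4%, 48.6% and 42.6%. Among later introns the spread was smaller, with 38.2%, 40.9% and 41.4% in the first 500 bases and 37.4%, 39.3% and 40.6% in the last. Within first introns of all 3 length classes the last 500 bases had the lowest GC content in 5′ excess and the highest in 3′ excess introns, ADRM1 being an example of the latter. Within later introns the order of the 3 sets changed with length. The polyadenylation hexamer AATAAA, searched on the sense strand only, occurred at a median of 0.82 per 1000 bases in 5′ excess introns, 0.51 in 3′ excess introns and 0.62 in the others. It was present in the last 500 bases of 38.6%, 26.6% and 30.3%, and in the first 500 bases of 26.8%, 17.9% and 26.03%. By class, the first 500 bases held it in 13.0%, 3.57% and 7.32% of first introns and in 36.4%, 26.8% and 28.0% of later introns, and the last 500 bases in 35.6%, 17.9% and 26.9% and in 40.8%, 32.0% and 30.6%.

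The splice sites were scored against the base frequencies of all eligible introns, as the sum of log2 ratios to equal base use over 3 exon and 6 intron bases at the donor, and over 20 intron and 3 exon bases at the acceptor. The median donor score was 8.04 for 5′ excess, 8.80 for 3′ excess and 8.46 for the other introns. The median acceptor score was 11.3, 9.37 and 10.1. In both sets, then, the median score was below that of the other introns at the end that stayed unspliced and above it at the end that was spliced. The order was the same within first introns (7.73, 8.87 and 8.28 at the donor; 11.8, 9.43 and 10.8 at the acceptor) and within later introns (8.19, 8.70 and 8.47; 10.8, 9.195 and 10.05). With the introns also divided by length, it held in all classes but 1, the later introns of up to 2000 bases, where the donor score of 3′ excess introns was 8.12 and that of the others 8.28. The differences are small beside the range among single introns. EGFR had a donor score of 11.6 and FIGNL1 an acceptor score of 12.2 at their unspliced ends. The median share of pyrimidines in the 20 bases before the AG was 75% in all 3 sets.

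The neighbours in the same transcript were retained to different degrees. The intron after a 5′ excess intron had a median PSI of 11.8% at the donor and 9.87% at the acceptor in WT E7107 (650 introns), whereas the intron before it had 26.9% and 26.4% (419 introns). The intron after a 3′ excess intron had 45.3% and 39.8% (275 introns) and the intron before it 31.4% and 31.9% (177 introns). Around the other eligible introns the medians were 5.65% and 5.52% before, and 5.56% and 5.56% after. These medians compare different introns before and after, since a first intron has none before it. Where both neighbours could be read, the one before had the higher mean of its 2 boundaries at 212 of 325 5′ excess introns (65.2%), with a median difference of 7.92 points, and the one after at 87 of 135 3′ excess introns (64.4%), with a median of -8.60 points (before minus after). Around the other eligible introns the one before was higher at 48.7% and the one after at 50.6%. In Y36C E7107 the medians of all neighbours, before or after, lay between 0.887% and 2.04%. The WT E7107 samples read for the neighbours are the ones that chose the introns.

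The 1251 introns were spread over 1099 genes, of which 132 held more than 1 and 60 held introns of both directions. CDR2, PPP1R12A and SFSWAP, named here for their count, held 4 each. PUF60, a splicing factor that binds polypyrimidine tracts with U2AF, had both. In WT E7107 its intron 1 (chr8:144906570-144911449, minus strand) had 41.5%, 47.2% and 52.7% at the acceptor and 2.96%, 3.65% and 8.70% at the donor as lowest, median and highest value. Its intron 5 (chr8:144900705-144902835) had 58.5%, 59.3% and 63.0% at the donor and 22.6%, 29.8% and 32.7% at the acceptor. Annotated exons of other PUF60 transcripts lay over the acceptor boundary of intron 1 and over both boundaries of intron 5. In Y36C E7107 the 4 boundaries had means between 0.971% and 8.83%, within 2 points of Y36C DMSO.

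Gene lists chosen with earlier results of these data known showed shares of selected introns around the 2.05% of all eligible introns. Among the genes that the study itself names for E7107, 2 of 41 eligible introns were selected (4.88%), both with 3′ excess; the study chose these genes on the same samples, so their share is no independent evidence. One of them was in EIF4A1, the RNA helicase of translation initiation. Intron 1 of EIF4A1 (chr17:7476183-7477577, plus strand) had 40.7%, 42.8% and 44.7% at the acceptor and 7.31%, 11.6% and 12.9% at the donor. Its acceptor boundary had 1.82% ± 0.293 in Y36C E7107 and 2.01% ± 0.401 in Y36C DMSO (SD, n = 6). In WT E7107 the acceptor values lay above all donor values, and neither boundary of EIF4A1 passed the test in Y36C cells (limma, adjusted p = 0.995 at the donor and 0.738 at the acceptor). An annotated EIF4A1 transcript starts inside this intron with a first exon over the acceptor boundary. Its exonic reads there cannot be told apart from unspliced reads.

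In the list of RNA polymerase II elongation factors 4 introns had 5′ excess and 6 had 3′ excess, 4.12% of 243. AFF4 and CDK13, a kinase of the elongating polymerase, led them. In CDK13 intron 1 had 71.2%, 81.5% and 89.1% at the donor and 0, 5% and 20% at the acceptor. Transcripts of CDK13 are annotated to end inside this intron, with a last exon over the donor boundary. Of 175 introns of cleavage and polyadenylation factors 3 had 5′ excess and 1 had 3′ excess (2.29%). FIP1L1, a subunit of the cleavage and polyadenylation specificity factor, had 46.0%, 64.8% and 71.2% at the donor of intron 1, and in Y36C cells a junction ending inside this intron fell by 0.66 in log odds under E7107 (limma, adjusted p = 0.000866). Annotated exons of other FIP1L1 transcripts lay over both boundaries of this intron. WDR33, the subunit that binds the hexamer, varied from 0 through 57.3% to 87.5% at the donor of intron 7, with 0 at the acceptor in all 6, so its ends overlapped. It also has an annotated last exon over the donor boundary. The U2 snRNP list had 1 and 1 of 200 introns (1.0%), both in PUF60, and the U1 snRNP list 1 and 0 of 104 (0.962%), in PRPF39, a protein of the U1 snRNP. Its intron 2 of 539 bases had 40.7%, 54.6% and 66.7% at the donor and 4.55%, 5.83% and 28.6% at the acceptor.

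Apoptosis regulators had 3 and 1 of 97 introns (4.12%), cell cycle genes 4 and 3 of 236 (2.97%) and DNA repair genes 3 and 3 of 495 (1.21%). MDM4, a relative of the ubiquitin ligase gene MDM2, had 3′ excess at intron 3, with a mean of 67.6% ± 13.5 at the acceptor and 28.3% ± 14.5 at the donor (SD, n = 6), and the 2 ends overlapped. An antisense gene overlapped this intron. CDK6, a kinase of G1 progression, had 48.1%, 55.6% and 68.8% at the donor of its intron 4 of 54090 bases. WEE1, a kinase that holds back mitosis, had 62.2% ± 5.80 at the donor of intron 1 and 15.5% ± 3.69 at the acceptor (SD, n = 6). At that acceptor 58.9% of the reads in WT E7107 came from a junction whose donor lies inside the intron, against 0.765% in WT DMSO, and an annotated WEE1 transcript starts inside the intron. ATR, the kinase of the replication stress response, had 56.5% ± 9 (SD, n = 6) at the donor of intron 1, and its ends did not overlap.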

How the data were processed

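Polyadenylated RNA of 24 HCT116 samples was sequenced, 6 for each combination of WT or Y36C PHF5A with DMSO or E7107. The authors aligned the reads (STAR and hg19 per the submitters' processing notes; the STAR version is not given in the sources used here) and deposited, for each sample, the percentage of reads (PSI) that each spliced junction or exon-intron boundary held at its splice site. At each site these percentages sum to 100, or to 0 where a site had no reads, which was treated as missing. Replicates were not pooled. Because the read counts behind a PSI are unknown, no counting intervals could be given, and values of 0 or 100% may rest on few reads. Strandedness is not given in the sources used here.

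Mitochondrial rows and rows without a strand, 1854 of 1830076, were left out. Introns were chosen as described above, with transcript models from GENCODE for GRCh37. Of 97860 introns whose junction was the most used one at both sites with reads in all samples, 71378 had 500 bases or more, 68166 of these had boundary rows at both ends, and 60967 of these met the limit of 10%. Introns were named by 4 rules: the 8 largest differences of each direction, the 5 largest in Y36C E7107 among those called there (there were none), up to 2 for each of 8 gene lists, and those nearest to the limit. The introns and gene lists were chosen with earlier results of these data known. Some items are not reported here.

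The 12 Y36C samples, E7107 against DMSO, were tested with limma 3.58.1 in R 4.3.3 on the natural log of the odds (PSI and its remainder each raised by 1 percentage point), with moderated variances and Benjamini-Hochberg adjustment (calls at 0.05 or less). One fit covered the difference between the ends over eligible introns, another all rows with a PSI above 0 in all 6 samples of a group. Both were tested on simulated data. Samples with the same number did not vary together (correlations of -0.0115 to 0.00193), so no pairing was used. Alternatives were other limits, offsets, filters and scales, a replicate block, the own junction alone and leaving out samples, the last 2 of them chosen after seeing the data. Python 3.11.15 with pandas 2.3.3, NumPy 2.4.6, pysam 0.24.0 and matplotlib 3.10.9 was used for the rest.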

Additional observations from a re-analysis of the deposited data

Results flagged for a closer look

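For 124 sets of 6 values, namely the difference between the donor and the acceptor boundary of each intron named for its size or its gene list, and the mean PSI at each end of both kinds of intron, in each group, the distance of the extreme sample from its nearest neighbour was set against the range of the set. In 20 sets it was larger than Dixon's 95% limit, where chance gives about 1 in 20 for normally spread values. In some sets, such as that of AFF4 in Y36C E7107, the difference was 0 in all other samples. That rate does not apply to such sets, so the count was not read as an excess. In WT E7107, where the introns were chosen, these were EGFR, with 72.9 points in 1 sample and 91.1 points or more in the others, LINC03057 with 68.0 points and FIGNL1 with -65.7 points. All 3 samples kept the direction of their group. In WT DMSO they were BRD1 with -6.67 points, C9orf85 with 7.32, DUSP14 with -7.41, FIP1L1 with -1.52 and TNK1 with 11.8.

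In Y36C DMSO the samples apart from the rest were at 1.49 points in APBB2, 15 in ATR, 22.2 in BRD1, 1.12 in CDK6, 1.12 in EGFR, -1.52 in FIP1L1, -4.76 in PUF60 intron 1 and 22.2 in TNK1. In Y36C E7107 they were at 2.78 points in AFF4, -23.5 in BRD1, -20.0 in FIGNL1 and -11.5 in GJC1.

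In 3 named introns the difference between the ends moved one way under E7107 in all WT samples and the other way in all Y36C samples, measured from the DMSO mean of the genotype. This contrast between genotypes was not tested. In Y36C cells the mean change was 1.82 points in BAHD1, 0.191 points in EIF4A1 and -1.80 points in WEE1, against -67.2, -30.2 and 46.9 points in WT cells. Both boundaries of BAHD1 were at 0 in all 6 Y36C E7107 samples. Its change there was only the distance from a Y36C DMSO mean of -1.82 ± 2.85 points (SD, n = 6). In EIF4A1 the change was smaller than the SD of the difference in Y36C DMSO, 0.517 points (n = 6).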

How the results depend on the processing

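The number of introns depended most on the limit, with 1908 (5′) and 1243 (3′) introns at 20 points and 484 and 114 at 40 points. Group medians gave 598 introns with 3′ excess and a demand for non-overlapping samples 196, while the 5′ count stayed within 1.5 times of 883 under both. Leaving out 1 WT E7107 sample gave 907 to 951 and 394 to 420 introns. In the limma fit of the difference between the ends, PSI in percent called 8 of the 5′ excess introns to the donor and 1 of the 3′ excess introns to the acceptor (65 and 75 of all introns), and a filter on PSI above 0 called 6 and 1 (41 and 33 of the 19975 introns then tested). The cause was not tested.

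Counts of higher boundaries in Y36C cells are given in the order donor and acceptor of 5′ excess, then acceptor and donor of 3′ excess introns. A change of at least 10 points was met by 34, 7, 14 and 2, introns chosen at 20 points gave 177, 70, 94 and 33, and those chosen at 40 points 47, 14, 8 and 2, fewer or more introns being tested in each. The donor count of 3′ excess introns was 5 on PSI in percent. Replicate numbers did not pair the samples. With the replicate block, the acceptor count of 5′ excess introns was 17 and the other counts were 74, 29 and 6, and the fit of the difference made no call (0 introns). Among 90 alternative values of named introns, 87 kept their side and direction. The shift was 0.12 instead of -0.12 in LINC03057 with an offset of 0.1 point, and on PSI in percent it was -0.99 instead of 0.44 in C9orf85 and -0.89 instead of 0.24 in ATR, none of them past the threshold. Unknown depth limits all values.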

Other observations

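The last intron of a transcript was less common among the selected introns, with 3.85% of the 5′ excess, 5.43% of the 3′ excess and 8.58% of the other eligible introns. Introns that lie whole within an exon of another annotated transcript were also less common, with 1.02%, 1.09% and 3.17%. A whole annotated gene lay inside 16.5% of the 5′ excess introns, 8.97% of the 3′ excess introns and 5.37% of the others. Outside the 1251 introns, 16 eligible introns reached a difference of 30 points in Y36C E7107, 5 with the donor and 11 with the acceptor boundary higher. None of them had done so in WT E7107, by the way the others were defined.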
